A study of Rattus norvegicus with 18 samples.

Results

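DNA methylation was followed around a CpG in an intron of Ncs1 and a CpG in an intron of Unc13a, both genes of the presynaptic terminal. The members were all CpGs within 50 kb of chr3:10577268 (Ncs1) and chr16:20062742 (Unc13a) of rn6 that had at least 10 reads on a strand in at least 1 striatum, with the strands of a CpG merged. There were 637 members, 280 in the Ncs1 window and 357 in the Unc13a window, out of 1451601 such CpGs in the whole data set. The central CpGs were themselves chosen by their difference in methylation between L-DOPA + R and L-DOPA, so their differences between treatments are given as a description and without a test, and tests there are kept to the sides and the interaction of side and treatment.

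Reduced representation bisulfite sequencing (RRBS) was available for both striata of 9 juvenile male Wistar rats, 3 in each treatment, and each rat had received 6-OHDA into the medial forebrain bundle of the left side at postnatal day (PND) 21. The UNT rats then received saline. The L-DOPA rats received L-DOPA at 6 mg/kg together with benserazide at 15 mg/kg, and the L-DOPA + R rats the same with 6 mg/kg Riluzole. Each group had 6 administrations between PND 35 and PND 49 and a final one at PND 53, 2 hours before collection. Riluzole was dissolved in Tween, which is stated for no other group, so that drug and vehicle cannot be told apart. The lesioned striatum was compared with the contralateral (control) striatum, so that no striatum came from a rat without a lesion. Whole striata were used, and a change in the share of a cell type and a change of methylation within cells cannot be told apart in them, nor can methylation calls show that the tissue is striatum. A rat stands below for the control and the lesioned striatum that carry the same number within a treatment. That both striata of each animal were analysed is stated, but not that these numbers mark the animal, and every value per rat rests on this reading. Per striatum, the CpG calls on rn6 ranged from 30288745 to 49113957 for UNT, 18471279 to 30764504 for L-DOPA and 19383285 to 25846139 for L-DOPA + R.

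Ncs1 encodes neuronal calcium sensor 1, an EF-hand protein that binds calcium at low concentrations and acts on calcium channels, on vesicle release and on dopamine D2 receptors. Unc13a encodes Munc13-1, the factor that primes synaptic vesicles at the active zone so that they can fuse when calcium enters, and its activity is set by calcium through calmodulin and by diacylglycerol. Methylated CpGs are the rule in introns and between genes, whereas promoters with many CpGs are usually free of methylation.

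The promoters of both genes lay inside the windows. The RefSeq sequences of the GRCr8 assembly, from 250 bases before to 50 bases after the start of each gene, were placed on the rn6 calls by the spacing of their CpGs, a step added after seeing the data. For Ncs1, 38 of 51 CpGs fell on called CpGs, whereas the next best of 199404 placements gave 17. For Unc13a, 15 of 25 did, against 9. Both genes read toward lower coordinates of rn6 in these placements, with the central CpG 25.4 kb (Ncs1) and 41.2 kb (Unc13a) downstream of the start. The sequences are shown because they carry the unmethylated members, with the CpGs found among the calls in capitals (GRCr8 chr3:34920699-34920998, plus strand, and chr16:18415737-18416036, minus strand).
Ncs1 promoter: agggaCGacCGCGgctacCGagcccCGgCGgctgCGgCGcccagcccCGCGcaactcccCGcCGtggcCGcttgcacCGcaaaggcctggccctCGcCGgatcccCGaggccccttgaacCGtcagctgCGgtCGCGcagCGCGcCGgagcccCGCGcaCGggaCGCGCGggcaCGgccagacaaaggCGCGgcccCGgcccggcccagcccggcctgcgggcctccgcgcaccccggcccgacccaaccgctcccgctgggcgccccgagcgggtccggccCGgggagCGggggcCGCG
Unc13a promoter: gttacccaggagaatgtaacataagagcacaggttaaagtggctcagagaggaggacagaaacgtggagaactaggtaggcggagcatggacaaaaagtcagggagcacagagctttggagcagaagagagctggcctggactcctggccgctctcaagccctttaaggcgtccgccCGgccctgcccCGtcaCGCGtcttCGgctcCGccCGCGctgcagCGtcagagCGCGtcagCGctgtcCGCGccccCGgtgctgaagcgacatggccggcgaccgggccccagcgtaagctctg
The motif CCGG, which MspI cuts and which reads the same on both strands, occurred 9 times in the Ncs1 sequence and 4 times in that of Unc13a, and 51.4% of 33469 RefSeq promoters of this length hold it at least once.

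Methylation in the promoters was near 0 in each treatment. At Ncs1 it was 0.496% ± 0.189 (SD, n = 3 rats) in UNT, 0.87% ± 0.816 for L-DOPA and 1.25% ± 0.452 for L-DOPA + R, with no striatum above 1.9%. At Unc13a it was 1.22% ± 0.564 (n = 3 rats) in UNT and 0.833% ± 0.727 (n = 3 rats) in L-DOPA + R, and 0.99% ± 1.4 in the 2 L-DOPA rats with kept reads. These levels were not tested between treatments, since the covered CpGs differed, for example 38, 26 and 35 CpGs at Ncs1.

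Around the promoters, members of every level occurred. Among the 413 members with kept reads in all treatments, 270 had a mean methylation under 20%, 79 between 20% and 80%, and 64 over 80%. Of all members, 97 were kept in all 18 striata (56 and 41 by window), and 204 in 4 or more of the 6 striata per treatment.

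**Figure D1:**
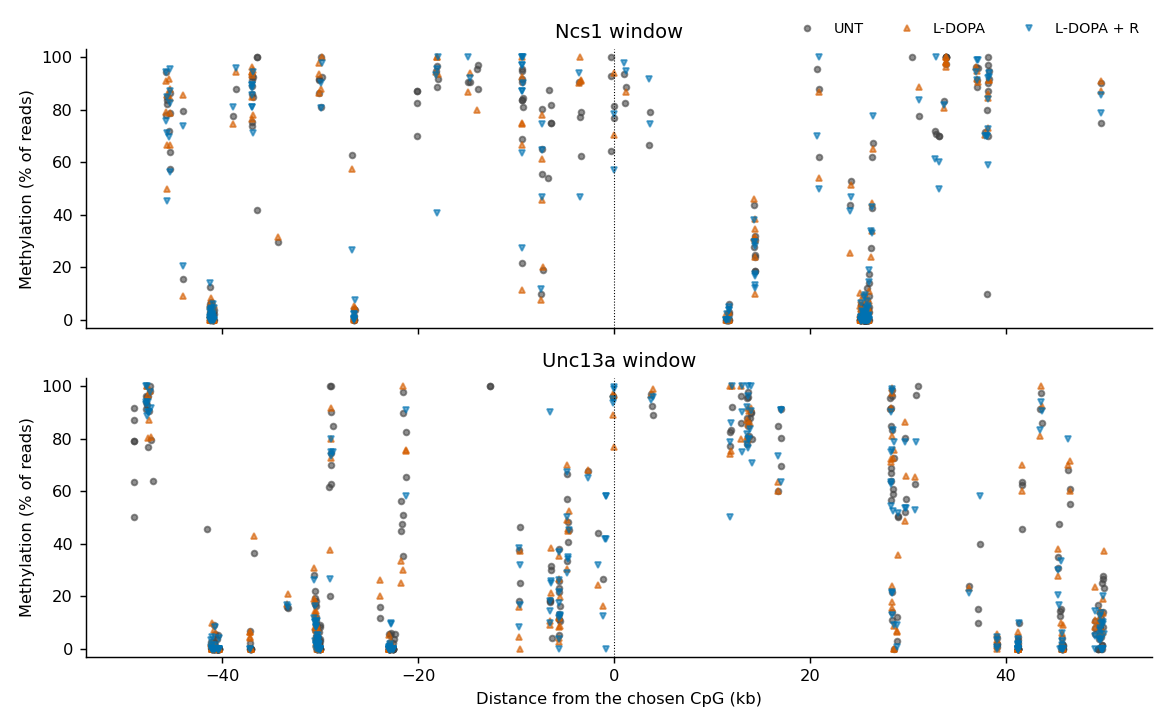
Methylation of each member CpG in percent of reads (y axis) against its distance from the central CpG in kb (x axis), for the Ncs1 window above and the Unc13a window below, where points are the summed kept reads of a treatment (circles UNT, upward triangles L-DOPA, downward triangles L-DOPA + R). Blocks near 0 alternate with blocks over 80% in both windows.

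At the central CpG of Ncs1, methylation was high in L-DOPA, intermediate in L-DOPA + R and split between rats in UNT. In UNT, the control and lesioned striata had 92.5% and 89.8% in rat 1, 92.3% and 88.9% in rat 2, and 56.2% and 34.5% in rat 3. In L-DOPA the values were 93.3% and 93.9%, 100% and 100%, and 93.1% and 86.4%. In L-DOPA + R they were 59.1% and 56.2% in rat 1, 54.5% in the lesioned striatum of rat 2, and 57.1% and 57.6% in rat 3, while the control striatum of rat 2 had 9 reads, under the minimum, of which 2 were methylated. No L-DOPA striatum overlapped with L-DOPA + R, and UNT rat 3 lay with or below the L-DOPA + R striata.

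Over the rats, the means were 76.7% ± 24.8 (SD, n = 3) in UNT, 94.6% ± 4.97 for L-DOPA and 56.6% ± 1.81 for L-DOPA + R, with 12 to 49 kept reads per striatum. From the summed reads, L-DOPA + R minus L-DOPA came to -36.9 points, the difference by which the CpG had been chosen. L-DOPA was 17.2 points above UNT, which came to 2.95 points without UNT rat 3 and 26.1 points without UNT rat 1, and L-DOPA + R minus UNT came to -19.7 points, or -34 points without UNT rat 3 and -10.8 points without UNT rat 1. Within UNT, the reads of both striata gave 48.1% in rat 3, 91% in rat 1 and 90.9% in rat 2, with no test, since each is a single rat.

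The split was not shared by the nearest CpG. At chr3:10577239, 29 bases before the central CpG and read in the same libraries, UNT rat 3 had 88.6%, rat 1 74.4% and rat 2 82.1%. The means there were 81.7% ± 7.09 (n = 3) in UNT, 72.3% ± 9.93 for L-DOPA and 78.4% ± 2.79 for L-DOPA + R, and neither treatment passed the threshold against UNT (adjusted p of the logistic model, 0.681 and 0.92).

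**Figure D2:**
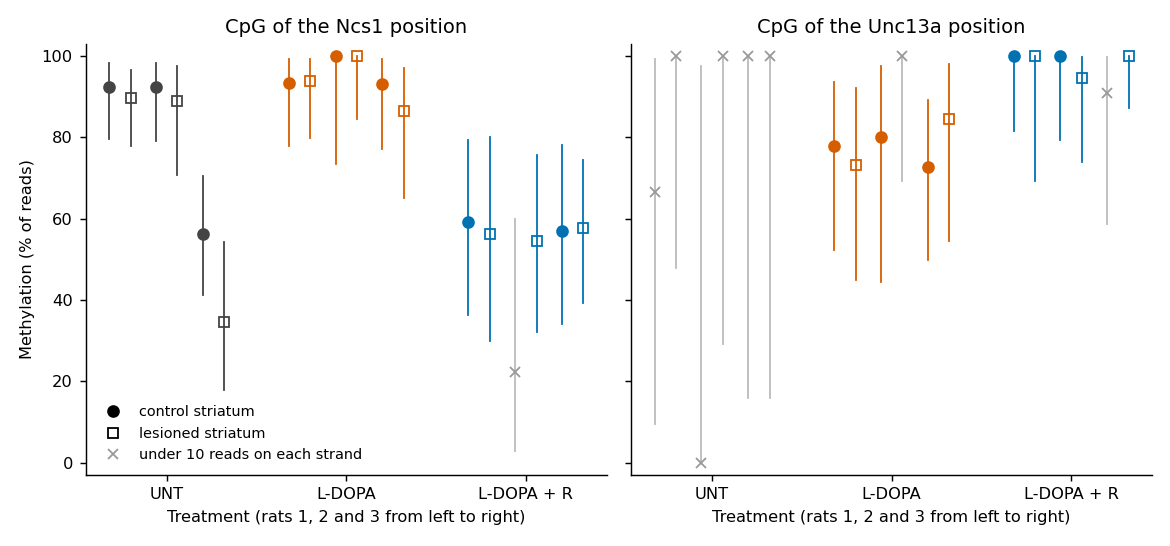
Methylation in percent of reads (y axis) in each striatum at the central CpG of Ncs1 (left) and of Unc13a (right), by treatment (x axis), with rats 1 to 3 from left to right, where filled circles are control striata, open squares lesioned striata, grey crosses striata with under 10 reads on each strand (all their reads), and lines exact 95% intervals for the counting error. At Ncs1 both striata of UNT rat 3 lie with or below the kept L-DOPA + R striata, and at Unc13a all UNT striata are crosses.

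The pattern over rats came back at 3 other CpGs of the Ncs1 window, which were looked for and chosen after their values were seen, with a minimum of 5 reads. Likeness was measured as the root mean square difference from the central CpG over the 9 rats. It was 5.73 points at chr3:10615414 (38.1 kb past the central CpG), 6.84 points at chr3:10573747 (3.52 kb before) and 14.1 points at chr3:10559235 (18 kb before), and from 18.4 points on for the other CpGs among the 190 of this window with a value in each rat.

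At chr3:10573747, the UNT rats had 100%, 95.7% and 51%, every L-DOPA rat had 100%, and the L-DOPA + R rats had 50%, 36.4% and 51.6%. At chr3:10615414, the UNT rats had 100%, 95.1% and 45%, the L-DOPA rats 100%, 100% and 87.5%, and the L-DOPA + R rats 63.3%, 38.1% and 65.2%. L-DOPA had only 28 reads in 4 striata there, 5 to 9 each, with rats 2 and 3 from the control striatum alone. At chr3:10559235, the UNT rats had 100%, 100% and 61.1%, every L-DOPA rat had 100%, and the L-DOPA + R rats had 63.6%, 57.1% and 23.5%. UNT had 62 reads in 4 striata there, with rats 2 and 3 from the control striatum alone, and L-DOPA + R had 42 reads in 5 striata. At each of these CpGs, as at the central one, UNT rat 3 was the lowest of the UNT rats and every L-DOPA rat was above every L-DOPA + R rat. The same order of rats was met at 4 of the 190 CpGs of the Ncs1 window, these 3 among them, at 5 of 228 of the Unc13a window, and at 1.14% of all CpGs with a value in each rat. The order includes the contrast that chose the central CpG, and nothing is read from these counts. The striata of a rat were not always close, and at chr3:10573747 UNT rat 3 had 25% in the control and 82.6% in the lesioned striatum.

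The kept reads of the central CpG and of these 3 CpGs came from 1 strand each, the forward strand for all but chr3:10559235. On that strand, an unmethylated cytosine and a T in the genome of the rat give the same call, and they cannot be told apart in these data. The forward cytosine of chr3:10615414 also lies 46 to 50 bases past another called cytosine of its strand. With the minimum of 10 reads, chr3:10573747 had 3 kept striata in L-DOPA + R and was not tested there, and its difference between L-DOPA and UNT was 22.9 points with an adjusted p of 0.69 (logistic model).

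At the central CpG of Unc13a, L-DOPA + R was nearly fully methylated and L-DOPA was lower, while UNT could hardly be measured. The kept reads came from the reverse strand. In L-DOPA, the striata had 77.8% and 73.3% in rat 1, 80% in the control striatum of rat 2, and 72.7% and 84.6% in rat 3, with 10 to 22 reads. In L-DOPA + R, they had 100% and 100% in rat 1, 100% and 94.7% in rat 2, and 100% in the lesioned striatum of rat 3, with 10 to 27 reads. The lesioned striatum of L-DOPA rat 2, with 8 reverse reads and so under the minimum, had all of them methylated (100%), level with L-DOPA + R, and over both strands without a minimum this rat had 90.5%. The kept striata of the groups did not overlap, in the contrast by which the CpG had been chosen, and their means over rats were 77.6% ± 2.16 (n = 3 rats) and 99% ± 1.65, with a difference of 22 points in the summed reads.

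In UNT no striatum reached 10 reads on either strand. Without a minimum and with both strands, UNT had 2 of 3, 0 of 1 and 2 of 2 methylated reads in the control striata and 5 of 5, 3 of 3 and 2 of 2 in the lesioned striata. Together these were 14 of 16 reads (87.5%, exact 95% interval 61.7% to 98.4%). In the same way, L-DOPA had 79 of 99 reads (79.8%, 70.5% to 87.2%) and L-DOPA + R 104 of 106 (98.1%, 93.4% to 99.8%). The UNT interval held both of these values, so that the place of UNT between or beside them was not detectable at this depth. The intervals cover counting error only.

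Of the 16 UNT reads, 12 came from the forward strand and 4 from the reverse strand. On the forward strand few reads were found in any treatment, with 12, 13 and 7 reads over the 6 striata of UNT, L-DOPA and L-DOPA + R. On the reverse strand there were 4, 86 and 99 reads, or 0.0162, 0.591 and 0.724 reads per 1000000 calls. No test is given, since the CpG became a member only through the treated striata. The CpG 28 bases before showed this too, with 0.00811, 0.855 and 1.15 on that scale on the forward strand, and it too was kept in treated striata alone. At the CpG 75 bases before, the forward strand had 0.762, 0.628 and 0.762, with ranges of the rats that overlapped.

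**Figure D3:**
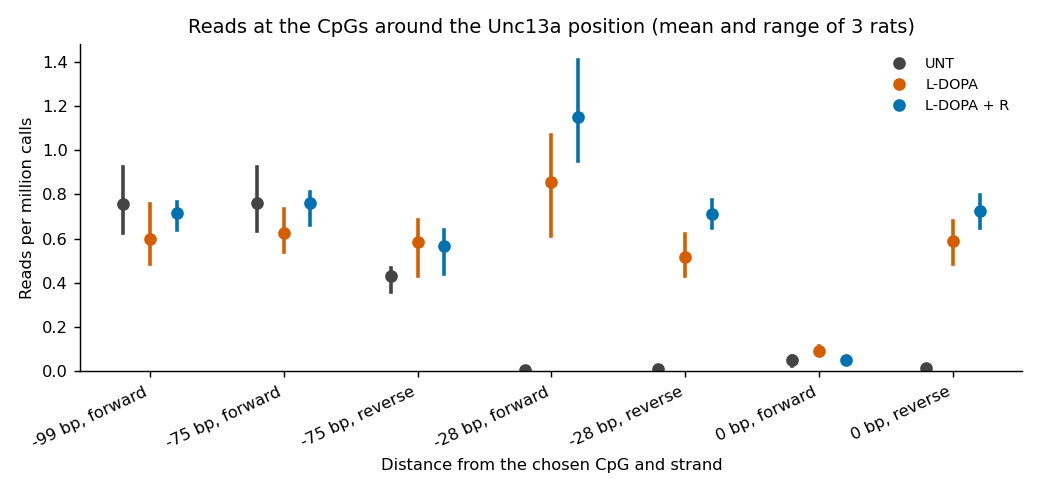
Reads per 1000000 calls (y axis) at the CpGs within 100 bases of the central Unc13a CpG, by distance and strand (x axis), where points are means of 3 rats and bars their range. UNT is near 0 at the CpG 28 bases before on both strands and at the reverse strand of the central CpG, and overlaps with the treated rats at 75 and 99 bases before.

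These CpGs were the only members without a kept UNT striatum that were kept in at least 4 of 6 striata of both treated groups. Over the whole data set this held for 7623 of 568416 CpGs (1.34%). The opposite case, at least 4 kept UNT striata and no kept treated striatum, was met by 14 of the 436 members with at least 4 UNT striata. By window it was 13 of 239 at Unc13a and 1 of 197 at Ncs1. Of all CpGs with at least 4 UNT striata, 3.43% met it. The neighbours of the Unc13a CpG were highly methylated. The CpG 28 bases before had 97.1% ± 2.87 (n = 3 rats) in L-DOPA, 99.4% ± 0.962 in L-DOPA + R and 5 of 5 reads in UNT. The CpG 75 bases before had 96.3% ± 1.04 in UNT, 89.7% ± 4.1 for L-DOPA and 94.1% ± 3.35 for L-DOPA + R (adjusted p of the logistic model 0.293 and 0.767 against UNT), and the CpG 99 bases before had 96.3% ± 3.92 (n = 3), 97.1% ± 0.544 (n = 2) and 95% ± 1.39 (n = 3).

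Between the striata of a rat, the gaps at the central CpGs ranged from 0 to 11.9 points in size, apart from one of -21.8 points, lesioned minus control, in UNT rat 3 at Ncs1. Over these and the CpGs within 100 bases, 42 pairs of control and lesioned striata could be compared with Fisher's exact test (two-sided). The smallest p was 0.0617, with an adjusted p of 1 for every pair, which at these read counts does not show that the sides were alike. Each test sets the reads of a single striatum against those of another, so that its p covers counting error only. The gap of UNT rat 3, with 56.2% in the control and 34.5% in the lesioned striatum, had an exact p of 0.0988 (adjusted p = 1). The difference of L-DOPA from UNT at this CpG was 15.6 points in the control and 19.2 points in the lesioned striata, and the interaction of side and treatment had an adjusted p of 1.

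Between the sides, the logistic model without the pairing of striata called none of the members. It tested 291 members for UNT, 119 for L-DOPA and 147 for L-DOPA + R, with 0 called in each, where 0.00193%, 0.00101% and 0.00176% of all tested CpGs were called. An unadjusted p under 0.05 was met by 23, 6 and 8 members (7.9%, 5.04% and 5.44%, against 6.45%, 5.4% and 6.29% of all CpGs). Leaving out L-DOPA rat 2 gave 1 call for L-DOPA, and leaving out L-DOPA + R rat 3 gave 1 for L-DOPA + R, both at chr3:10533299 in the Ncs1 window. The lesioned minus control difference there was -20.3 points (adjusted p 0.00333) and -26.9 points (adjusted p 1.35e-05, chi-square test). With the rat number as a block in the model, this CpG was called for L-DOPA with all rats too (-15.1 points, adjusted p 0.00341, chi-square test).

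At chr3:10533299, the strands gave opposite readings in all treatments. With at least 5 reads, the forward cytosine was methylated in 0.239%, 1.1% and 0% of reads in UNT, L-DOPA and L-DOPA + R, and the reverse cytosine in 97.7%, 94.4% and 96.7%. The forward cytosine lies 49 bases past the forward cytosine of the CpG at chr3:10533250, where the readings were the other way round, with 93.8%, 94.5% and 92.2% on the forward and 2.25%, 3.45% and 2.13% on the reverse strand. The merged value of a striatum therefore moved with whether the reverse strand had 10 reads. All 3 lesioned L-DOPA striata kept the forward strand alone and had 0%, whereas the control striata had 22.7%, 0% and 17.9%. With a minimum of 5 reads the lesioned striata had 15.2%, 17.8% and 11.8%, and the control striata 22.7%, 11.5% and 17.9%.

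The interaction of side and treatment called 0 of 115, 0 of 145 and 0 of 97 members in L-DOPA against UNT, L-DOPA + R against UNT and L-DOPA + R against L-DOPA, where 0%, 0% and 0.000658% of all CpGs were called. An unadjusted p under 0.05 was met by 11, 9 and 4 of these members, or 9.57%, 6.21% and 4.12%, against 6.05%, 6.44% and 6.12% of all CpGs.

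Against UNT, the logistic model called a single member apart from the central CpGs. This call was not met on the reverse strand alone, and the forward strand could not be tested, since it had no kept UNT striatum. In L-DOPA against UNT it was 1 of 226 tested members, where 0.351% of all CpGs were called (0.269% as lower), and in L-DOPA + R against UNT 1 of 278, where 0.445% were called (0.361% as lower). In L-DOPA + R against L-DOPA, the contrast that chose the central CpGs, it was 0 of 204, where 0.0477% were called, and nothing is read from this count. An unadjusted p under 0.05 was met by 15, 20 and 13 members (6.64%, 7.19% and 6.37%, against 7.37%, 9.52% and 7.09% of all CpGs). The median difference of the tested members from UNT was -0.00705 points for L-DOPA and -0.0833 points for L-DOPA + R, beside -0.00614 and -0.265 points over all CpGs.

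The called CpG was the same in both comparisons, chr3:10531648, an intergenic CpG in the authors' annotation, 45620 bases before the central CpG of Ncs1. Its rats had 78.9%, 90.9% and 84.7% in UNT, 50.7%, 70% and 42.4% for L-DOPA, and 42%, 39.7% and 53.3% for L-DOPA + R. The treated rats lay below all UNT rats. The difference from UNT was -33.9 points in L-DOPA (adjusted p = 4.88e-05) and -38.5 points in L-DOPA + R (adjusted p = 5.66e-06, chi-square test of the logistic model). The model takes the striata of a rat as separate samples, and with the rat as the unit this CpG was called too (adjusted p 0.00219 and 3.29e-08).

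The strands of this CpG gave different readings in the treated rats, and the kept UNT reads were all from the reverse strand. On the reverse strand, methylation was 84.9% ± 5.98 (n = 3) in UNT, 90.6% ± 1.74 for L-DOPA and 87.4% ± 5.51 for L-DOPA + R. On the forward strand it was 23.9% ± 5.49 for L-DOPA and 21.6% ± 4.86 for L-DOPA + R, while UNT had 0 to 8 reads per striatum, none of them kept, with 28 of 30 reads methylated. On the reverse strand alone, the difference from UNT was 6.81 points in L-DOPA (adjusted p = 0.846) and 4.72 points in L-DOPA + R (adjusted p = 0.89, chi-square test). The forward cytosine lies 50 bases past another called cytosine of its strand, and when such cytosines were left out, the call was lost and the difference had the opposite sign. The reads were 50 bases long, and whether the forward readings give the methylation of this cytosine or come from the ends of the library fragments was not tested. The call of L-DOPA was also lost without L-DOPA rat 3 (-27.2 points, adjusted p = 0.0481) and without UNT rat 3 (-33.3 points, adjusted p = 0.0118, chi-square test).

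The CpG at the other end of these 50 bases, chr3:10531598, showed the mirror image. Its reverse cytosine, 50 bases past another, had 83.3% ± 7.41 (n = 3) in UNT, 58% ± 10.6 for L-DOPA and 64.6% ± 4.48 for L-DOPA + R. Its forward cytosine had 82.1% ± 5.5 (n = 3), 88.6% ± 9.64 (n = 2) and 88.3% ± 4.54 (n = 3). Merged, the difference from UNT was -15.9 points in L-DOPA (adjusted p = 0.275) and -11.1 points in L-DOPA + R (adjusted p = 0.234, chi-square test).

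**Figure D4:**
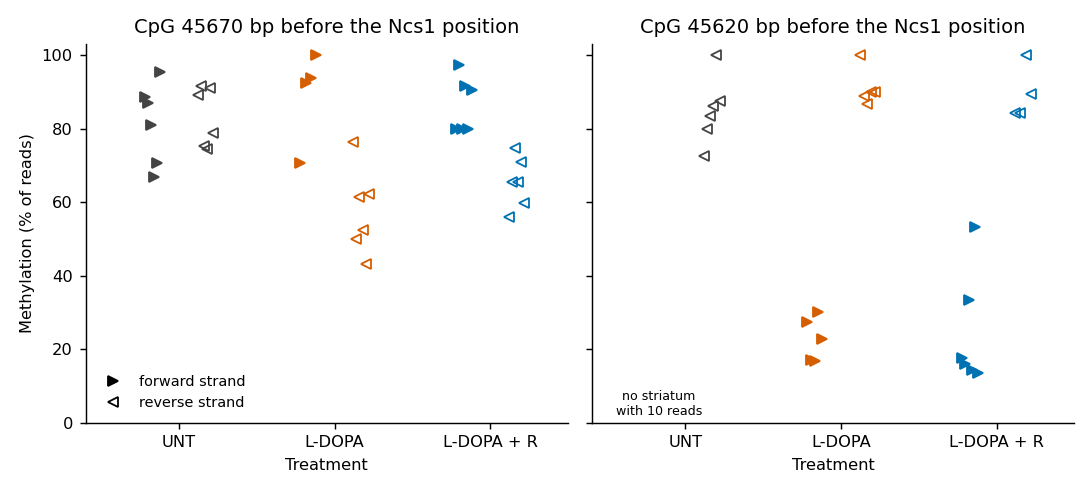
Methylation in percent of reads (y axis) in each striatum with at least 10 reads on the strand, by treatment (x axis), at the CpGs 45670 bases (left) and 45620 bases (right) before the central Ncs1 CpG, with filled triangles for the forward and open triangles for the reverse strand. At 45620 bases the forward strand of the treated rats lies far below the reverse strand, which lies over 70% in all treatments.

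A cytosine 50 bases past another was present at 31 of the 637 members, and one 46 to 50 bases past at 107. Where one strand of a member lay 50 bases past a cytosine and the other strand was kept with over 50% methylation, the former was lower by over 20 points at 0 of 4 CpGs for UNT, 2 of 5 for L-DOPA and 2 of 6 for L-DOPA + R. For 46 to 49 bases, it was 4 of 11, 3 of 7 and 4 of 9. These counts were made after seeing the data.

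Within Ncs1, a weakly methylated CpG had no methylated read among the kept reads of L-DOPA, and its difference from UNT did not pass the threshold. At chr3:10588995, in an intron of Ncs1 and 11727 bases past the central CpG, the rats had 1.74%, 5.59% and 2.16% in UNT, 0% in each L-DOPA rat, and 1.6%, 4.62% and 4.48% in L-DOPA + R. L-DOPA had 0 of 273 methylated reads, which allows up to 1.1%, while a striatum with 9 reverse reads, under the minimum, held 1 methylated read. The difference from UNT was -3 points in L-DOPA (adjusted p = 0.0543, chi-square test) and 0.704 points in L-DOPA + R (adjusted p = 0.955). With a rat left out, it ran from -3.66 to -1.96 points in L-DOPA and from 0.0452 to 1.74 points in L-DOPA + R.

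At chr3:10602896, in the placed Ncs1 promoter, UNT had 0 of 96 methylated reads, which allows up to 3.12%, and L-DOPA + R had 8.89% ± 8.39 (n = 3 rats) with an adjusted p of 0.0911. The methylated reads there came from the forward strand (5 of 42 kept reads). L-DOPA kept a single striatum there, and without the minimum it had 2 methylated reads of 36 on the forward strand.

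In the Unc13a window no CpG passed the threshold against UNT, and the share with an unadjusted p under 0.05 came to 4.96% (L-DOPA) and 6.25% (L-DOPA + R), beside 7.37% and 9.52% of all CpGs. In the Ncs1 window it was 8.57% and 8.21%. These shares were not tested against each other. The differences of the CpGs with the smallest p had both signs. At chr16:20061623, 1119 bases before the central CpG, the means were 26.4% ± 4.82 (n = 3) in UNT, 16.9% ± 4.18 for L-DOPA and 11.7% ± 7.26 for L-DOPA + R (adjusted p 0.73 and 0.326 against UNT). At chr16:20057123, 5619 bases before, they were 11.6% ± 2.29, 3.24% ± 2.99 and 3.56% ± 1.06 (adjusted p 0.311 and 0.265). Its reverse cytosine lies 47 bases past another and had 11.7%, 4.23% and 1.87% of the kept reads methylated in UNT, L-DOPA and L-DOPA + R, while the forward cytosine had 10.3%, 0% and 11.1%, so that L-DOPA + R was lower than UNT on the reverse strand alone. At chr16:20032246, 30496 bases before, they were 19.5% ± 2.41, 14% ± 3.99 and 10.3% ± 4.37 (adjusted p 0.82 and 0.248). At chr16:20066697, 3955 bases past, they were higher in the treated rats, with 88.2% ± 7.8, 99.2% ± 1.37 and 96.7% ± 3 (adjusted p 0.499 and 0.741).

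The mean over a window was lower in every L-DOPA + R rat than in every UNT rat, as was the mean over all CpGs of the data set, while L-DOPA overlapped with both groups in the windows. Over the 98 CpGs of the Ncs1 window with a value in each rat, without the central one, it was 31.2% ± 0.935 (n = 3) in UNT, 30.6% ± 0.567 for L-DOPA and 29.7% ± 0.415 for L-DOPA + R. Over 102 CpGs of the Unc13a window, it was 26% ± 0.819, 25.3% ± 0.615 and 24.3% ± 1.06. Over 539758 CpGs of the data set, a comparison added after seeing the data, it was 46.7% ± 0.112, 46.1% ± 0.402 and 45.2% ± 0.58. L-DOPA + R minus UNT thus came to -1.49 points at Ncs1 and -1.71 points at Unc13a, beside -1.46 points over all CpGs, and nothing particular to the windows is read from this. At Ncs1 it was -0.951 points without UNT rat 2, -0.591 points with a minimum of 5 reads, and -0.976 points without chr3:10531648 and chr3:10531598, whose strands gave different readings. The exact permutation p (two-sided, 3 rats against 3) was 0.1 for L-DOPA + R against UNT in both windows, the smallest this design allows, and between 0.2 and 0.5 otherwise, so that no p under 0.05 could be reached.

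CpGs at most 100 bases apart were joined, which gave 16 stretches of at least 5 CpGs. The value of a stretch is the methylated share of the summed reads of its CpGs. CpGs with more reads thus weigh more, unlike in the window means. The rats of L-DOPA and UNT did not overlap in 2 of them (12.3% of 28574 stretches of the data set), those of L-DOPA + R and UNT in 5 (14.1%), and those of L-DOPA + R and L-DOPA in 2 (10.9%). Each of these had an exact permutation p of 0.1. The stretch that holds chr3:10531648 had 84% ± 3.44 (n = 3 rats) in UNT, 73.8% ± 1.26 for L-DOPA and 73.4% ± 1.03 for L-DOPA + R. Of its 5 CpGs, the 2 with a cytosine 50 bases past another differed from UNT by -33.9 and -15.9 points in L-DOPA and reversed without these cytosines, and the others by -3.31, 1.02 and 0.714 points. A stretch of 11 CpGs from 28277 to 28520 bases past the Unc13a CpG did not overlap in any of the comparisons. It had 51.2% ± 0.701 in UNT, 55.2% ± 1.52 for L-DOPA and 48.3% ± 1.47 for L-DOPA + R, and it holds cytosines 49 and 50 bases past another. Its CpGs ranged from 10.9% to 98.7% in UNT, so its value depends on how the CpGs are weighted. Whether the groups stay apart with equal weight per CpG was not tested. It was the 1 stretch of 16 without overlap in any comparison and was singled out for it. Of the 28574 stretches, 0.56% had no such overlap, a share added after seeing the data.

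**Figure D5:**
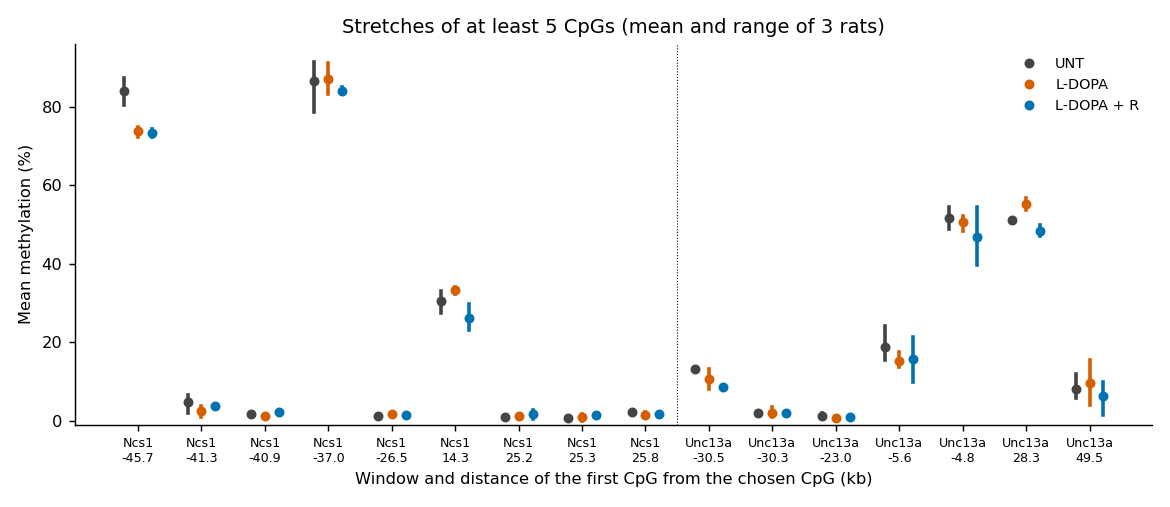
Methylation in percent of the summed reads (y axis) of the 16 stretches of at least 5 CpGs, named by window and by the distance of their first CpG from the central CpG in kb (x axis), where points are means of 3 rats and bars their range. Most stretches overlap between treatments, and the stretch at 28.3 kb of Unc13a is separate in all of them.

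Among CpGs that the authors' lists assign to a gene, of which 1 list was held here only in part, those most like the central CpGs over the rats were found by the same root mean square difference. For Ncs1 (9 rats, 1030 CpGs) they lay in Agap1 (13.7 points), a GTPase-activating protein for Arf, Sgk1 (14.4), a kinase induced by serum and glucocorticoids, Pard3b (14.8), a polarity protein, Tenm2 (15), a teneurin of synaptic adhesion, and Rfx2 (15.4), a transcription factor. The gap of UNT rat 3 was smaller there, and the Agap1 CpG, for example, had 83.3%, 81.7% and 77.4% in the UNT rats. For Unc13a (6 treated rats, 1048 CpGs) they lay in Ufl1 (4.38 points), the ligase of UFM1, Hdgfl2 (4.81), Kynu (5.59 and 6.12), the kynureninase of tryptophan breakdown, and Acap1 (6.03), another protein acting on Arf.

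These CpGs were matched on the treated rats alone, and nothing is read from them about UNT at Unc13a. The Ufl1 CpG had 93.9% in UNT, 81.7% for L-DOPA and 97.5% for L-DOPA + R (means of 3 rats), and the Hdgfl2 CpG 99%, 81.7% and 100%. The Kynu CpGs had 95.4%, 83.7% and 99.4%, and 95.1%, 81.1% and 93.9%. The Acap1 CpG had 85.8%, 83.9% and 97.6%, so that UNT lay beside L-DOPA there.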

How the data were processed

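RRBS libraries (MspI, single-end reads of 50 bases) of both striata of 9 rats were used. The authors used FastQC 0.10.0 for read quality, Trim Galore 0.4.0 for trimming, Bismark 0.14.3 for alignment to rn6 and methylKit 1.8.0 for testing. The deposited coverage is the count of reads at each CpG cytosine, without a minimum, and the percent reading as C and as T was deposited beside it. Whole methylated reads were rebuilt from both. Cytosines under 10 reads were dropped before merging strands. CpGs in at least 4 of 6 striata of each treatment (all striata for the sides) were tested in Python 3.11.15 (numpy 2.4.6, pandas 2.3.3, scipy 1.17.1) with a logistic model with overdispersion and a chi-square test written after methylKit and tested on simulated data. The Benjamini-Hochberg method was applied over all CpGs, and an adjusted p under 0.01 was called. Striata of the same number and treatment were taken as those of 1 rat, which the labels do not state (the check stands in the closing section). Equal numbers in different treatments are different rats.

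The members, lists and tests were chosen with earlier results of these data known. Named were the central CpGs, those within 100 bases, every called member, the 3 with the smallest p per window and comparison with UNT, listed members, stretches and the 5 most alike listed CpGs. The authors' differences and q-values were not used, only positions, genes and regions of their lists. Genes near the members were not annotated here, and no rn6 sequence was used. Alternatives are given in the closing section. The search for alike CpGs in the window, the counts by strand, the promoter placement, the check of the numbers, the mean over all CpGs and the stretches apart in all comparisons were added after seeing the data.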

Additional observations from a re-analysis of the deposited data

Results flagged for a closer look

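In 37 groups of 4 to 6 striata at the named CpGs, 4 held a striatum whose gap to the nearest other was over Dixon's 95% critical value, where chance gives about 5% of groups with untied values. At chr16:20032246 in the Unc13a window, the L-DOPA control striatum of rat 2 had 36.4% of 11 reads, and the other 5 had 6.25% to 16.7%. In the other cases every other striatum was at 100%, so that any unmethylated read sets off this criterion and the share given by chance does not apply. These were the L-DOPA + R lesioned striatum of rat 3 at the CpG 28 bases before the central Unc13a CpG (98.3%), the L-DOPA + R lesioned striatum of rat 2 at the central Unc13a CpG (94.7%) and the L-DOPA control striatum of rat 3 at chr16:20066697 (95.7%).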

How the results depend on the processing

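Of the alternatives for the counts, mean levels and central CpGs, 206 kept direction and size, 34 moved a value and 9 reversed one. The cause was not tested unless a leaving-out shows it.

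For called members in L-DOPA against UNT (1), the count was 0 with a minimum of 20 reads, each strand on its own, the F test, CpGs in all 12 striata, control striata alone, a window of 25 kb, and without cytosines 50 or 46 to 50 bases past another. It was 2 with a minimum of 5 reads or lesioned striata alone, 3 without overdispersion correction, and 0 to 1 with a rat left out. In L-DOPA + R against UNT (1), it was 0 with a minimum of 20 reads, each strand, the F test, control striata alone, a window of 25 kb and without cytosines 50 or 46 to 50 bases past another, 4 without overdispersion correction, and 1 to 2 with a rat left out. In L-DOPA + R against L-DOPA (0), it was 2 with a minimum of 5 reads and 0 to 0 with a rat left out. These 2 were chr3:10559235 and chr3:10573747, which had been picked for their likeness to the central Ncs1 CpG. That likeness includes this contrast, so nothing is read from these calls. Lesioned against control gave 1 in L-DOPA without overdispersion correction and with the replicate block, and 0 to 1 with a rat left out in either treated group. The call with the replicate block was at chr3:10533299 (-15.1 points, adjusted p 0.00341), and the block changed no other count. As a hint on the pairing, added after seeing the data, 17 of 18 striata correlated best, in their deviations from the group means, with the striatum of their own number (r 0.0336 to 0.112 over 294959 CpGs, over 0.1 in 2 of 9 pairs) rather than another number (-0.0864 to 0.0403).

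At the central Unc13a CpG, L-DOPA + R minus L-DOPA (22 points) was 27.3 with a minimum of 20 reads, 19.9 with 5, 18.3 with 1, 24 in control and 19.6 in lesioned striata. L-DOPA minus UNT (-7.7 points, no minimum) was 1.28 on the forward strand, -20.9 on the reverse strand and 8.77 in control striata. L-DOPA + R minus UNT (10.6) was -1.01 on the reverse strand, 31.2 in control and -1.72 in lesioned striata. With a rat left out, L-DOPA minus UNT ran from -11.9 to -3.54 and L-DOPA + R minus UNT from 6.45 to 14.8. UNT had 16 reads in all. Mean methylation reversed to 0.478 points (control striata) and 0.379 points (CpGs in all 18 striata) for L-DOPA + R against L-DOPA at Ncs1, to 0.77 points (summed reads) for L-DOPA against UNT at Unc13a, and to 1.08 points (minimum of 20 reads) and 0.117 points (control striata) for L-DOPA + R against L-DOPA there.

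Among single CpGs, chr3:10531598 reversed on the forward strand and without cytosines 50 or 46 to 50 bases past another (7.66 points in L-DOPA, 7.04 in L-DOPA + R), as did chr3:10531648 (6.81 and 4.72 points). In L-DOPA + R against UNT, chr3:10577239 reversed in lesioned striata (1.78) and without UNT rat 3 (0.554, from -7.36 with a rat left out), chr3:10588995 on the reverse strand (-0.758), chr16:20062643 in lesioned striata (3.28) and without UNT rat 3 (0.589, from -3.23), and chr16:20062667 on the reverse strand (2.1). In L-DOPA against UNT, chr16:20062643 reversed without UNT rat 1 (-1.03, up to 2.79). The F test lost the call of chr3:10531648 (adjusted p 0.215 and 0.107). Depth limits the central CpGs, with 10 to 49 reads in the kept striata and 1 to 5 reads per UNT striatum at Unc13a.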
